A study of Mus musculus with 18 samples.

Results

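Transcripts of 8 collagen genes were followed in 18 mouse pancreases: Col1a1 and Col1a2, which encode the chains of type I collagen, Col3a1, which encodes type III collagen, Col5a1 and Col5a2, which encode chains of type V collagen, and Col6a1, Col6a2 and Col6a3, which encode the chains of type VI collagen. They were chosen by gene symbol, as the chains of the interstitial fibrils and of the microfibrils beside them, and are 8 of 25651 genes in a table of molecules counted by unique molecular identifier (UMI). All 8 were among the 6920 genes that passed the filter on low counts. The mice were 5 labelled KPC ASC KO, 7 labelled KPC and 6 wild type (WT), all aged 20 weeks and bred from 129Sv and C57BL/6, so that the mixed background is shared by every group. The name KPC is in general use for mice that develop pancreatic cancer from the epithelium of the gland. The labels do not spell out its alleles, its Cre driver or whether ASC was deleted in every cell, and they give no sex, litter or histology. ASC, encoded by Pycard, is the adaptor through which inflammasome sensors recruit caspase 1. RNA came from whole snap-frozen pancreas of 1 mouse per library, and in such bulk tissue fewer cells of a type and less RNA per cell cannot be told apart.

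Type I, III and V collagens are fibrillar: their chains wind into triple helices in the endoplasmic reticulum, are secreted as procollagens, trimmed at their ends and packed side by side into banded fibrils, in which type V collagen is known to start the fibril and limit its width. Type VI collagen forms beaded microfibrils that lie between fibrils, cells and basement membranes. In the pancreas these chains are made mainly by fibroblasts and stellate cells, and a dense collagen-rich stroma is a known feature of pancreatic cancer.

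The libraries held 374432 to 647947 counts in KPC ASC KO mice, 452472 to 1626977 in KPC mice and 294077 to 416879 in WT mice. Pycard was at 5.56 to 34.2 normalised CPM (counts scaled to libraries of a common size) in KPC ASC KO mice, against 35.1 to 99.5 in KPC mice and 45.4 to 65.5 in WT mice, so that the knockout mice lay below every other mouse but were not at 0. Markers of acinar cells, the enzyme-secreting cells of the pancreas, took 30.5% to 52.8% of all counts in KPC ASC KO mice, 4.20% to 37.6% in KPC mice and 45.2% to 55.6% in WT mice. Counts that one cell type takes up are not available to others, so CPM were scaled by the trimmed mean of M values (TMM), which lines up the bulk of the genes. Scaling by total counts, and by the total left without acinar markers, is given where it changes a result. In KPC mice 89, 145 and 154 and, less so, 40, the 11 B cell markers summed to 702 to 1239 CPM, against 29.5 to 252 CPM in the other 14 mice, and results for KPC are given with and without these 4 mice where they differ. Without them only KPC mice 43, 48 and 210 remain, so a call can be lost through the smaller group alone.

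The genes lie on 5 chromosomes of GRCm38. Col3a1 (chr1:45311538-45349706, plus strand) and Col5a2 (chr1:45374321-45503282, minus strand) are neighbours 24614 bases apart, and Col6a1 (chr10:76708792-76726168) and Col6a2 (chr10:76595762-76623630) lie 85161 bases apart on the minus strand. Col6a3 is at chr1:90765923-90843971, minus strand. Col1a1 (chr11:94936224-94953042), Col1a2 (chr6:4504814-4541544) and Col5a1 (chr2:27886425-28039514) are each on the plus strand of a chromosome of their own. The annotated antisense transcripts 2810430I11Rik and Gm13372 overlap Col5a1. The strand used in counting is not stated, so it is not known whether their reads were kept apart from those of Col5a1. On the same strand as the collagen gene, Gm43921 overlaps Col1a2, Gm47302 Col3a1, Gm38211 Col5a2 and Gm36970 Col6a3. The part of these transcripts in the counts was not tested.

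Of the 8 genes, 6 had a promoter window of 300 bases around the transcript start in the RefSeq table for GRCm38.p6. Those of Col1a2, Col3a1 and Col6a1 are shown because these genes stand for a type I, a type III and a type VI chain, whose levels are set side by side below. Each runs 5′ to 3′ along the strand of its gene, and capitals mark matches, on either strand, to the CCAAT box, to the TATA box letters (TATAAA) and to the GC box letters (GGGCGG).
Col1a2, chr6:4505368-4505667, plus strand: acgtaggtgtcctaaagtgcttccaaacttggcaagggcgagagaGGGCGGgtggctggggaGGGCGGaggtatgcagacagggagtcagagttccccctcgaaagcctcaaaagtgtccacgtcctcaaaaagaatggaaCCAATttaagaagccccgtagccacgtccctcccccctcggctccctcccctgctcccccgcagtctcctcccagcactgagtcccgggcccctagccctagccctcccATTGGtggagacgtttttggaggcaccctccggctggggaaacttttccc
Col3a1, chr1:45311288-45311587, plus strand: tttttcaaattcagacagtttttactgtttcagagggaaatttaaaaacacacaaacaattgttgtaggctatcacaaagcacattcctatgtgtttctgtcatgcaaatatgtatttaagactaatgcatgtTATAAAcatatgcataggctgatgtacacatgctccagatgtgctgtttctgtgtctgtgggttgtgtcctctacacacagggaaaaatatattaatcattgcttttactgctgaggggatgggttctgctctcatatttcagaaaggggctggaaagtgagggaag
Col6a1, chr10:76725995-76726294, minus strand: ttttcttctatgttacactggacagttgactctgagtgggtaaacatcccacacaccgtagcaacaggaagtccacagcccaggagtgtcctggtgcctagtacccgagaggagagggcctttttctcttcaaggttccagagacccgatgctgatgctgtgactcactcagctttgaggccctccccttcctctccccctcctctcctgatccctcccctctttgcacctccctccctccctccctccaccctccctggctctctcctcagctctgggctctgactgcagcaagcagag
The Col1a2 promoter held CCAAT beginning at -109 on the gene's strand and again at 1 on the other strand, where 1 is the first transcribed base of the RefSeq entry, and GGGCGG beginning at -205 and -188. This Col1a2 window lies inside the gene as placed above, which begins at 4504814, so the 2 annotations give it different starts. They also differ for Col6a1. That gene as placed above begins at 76726168 on the minus strand, upstream of the RefSeq start within its window. The Col3a1 promoter held TATAAA beginning at -117 and neither of the other motifs. The Col6a1 promoter held none of the 3 motifs, and neither did that of Col6a3. Col5a1 and Col6a2 held GGGCGG only. Among 32851 promoters of the same length, 37.4% held the CCAAT box, 13.6% the TATA box letters and 35.7% the GC box letters, and a match in a window of this size is a description of its letters only. Base composition ranged from 37.7% G and C in Col3a1 and 57.3% in Col6a1 to 61.0% in Col1a2 and 75.0% in Col5a1, against a median of 52.7% over all promoters.

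Type I collagen transcripts were higher in KPC than in WT pancreas, and in KPC ASC KO pancreas they split between the levels of both. Col1a1, the gene of the chain present as a pair in each type I molecule, had 159.6, 145, 646, 697 and 144 CPM in KPC ASC KO mice 318, 335, 377, 384 and 388. In KPC mice Col1a1 ran from 281 through a median of 451 to 536 CPM, and in WT mice from 117 through 136 to 237 CPM. On this scale KPC ASC KO mice 377 and 384 lay above every KPC mouse, while mice 318, 335 and 388 lay within the WT range. By total counts mice 377 and 384 had 632 and 779 CPM of Col1a1 and lay within the 415 to 1049 CPM of KPC mice, and the other 3 stayed within the WT range. Every KPC mouse lay above every WT mouse, on both scales, which held for 3.77% of the genes tested with TMM. The group means were 358 ± 287 CPM in KPC ASC KO (SD, n = 5), 415 ± 119.9 CPM in KPC (SD, n = 7) and 149 ± 44.1 CPM in WT (SD, n = 6). By edgeR's quasi-likelihood test with Benjamini-Hochberg adjustment over the 6920 genes, Col1a1 rose in KPC against WT by a log2 fold change of 1.48 (SE 0.39, adjusted p = 0.00949).

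Col1a2, which encodes the other type I chain, was high and low in the same KPC ASC KO mice as Col1a1. It had 217, 242, 961, 918 and 258 CPM in KPC ASC KO mice 318, 335, 377, 384 and 388, ran from 367 through 609.6 to 837 CPM in KPC mice, and from 165 through 228 to 287 CPM in WT mice. Again the KPC and WT mice did not overlap, and with TMM KPC ASC KO mice 377 and 384 again exceeded every KPC mouse while the other 3 lay among the WT mice. By total counts these 2 mice had 940.3 and 1026 CPM, within the 561 to 1655 CPM of KPC mice. Col1a2 rose in KPC against WT by 1.42 on the log2 scale (SE 0.37, edgeR adjusted p = 0.00862). The groups had close means of the ratio of Col1a1 to Col1a2: the mean log2 ratio was -0.60 ± 0.19 in KPC ASC KO (SD, n = 5), -0.48 ± 0.12 in KPC (SD, n = 7) and -0.57 ± 0.36 in WT (SD, n = 6). Single mice differed more, from -0.99 in WT mouse 1237 to -0.09 in WT mouse 1213, at 27 to 46 counts of Col1a1 per WT library. Such a ratio within a library does not depend on how libraries are scaled.

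Col3a1, whose product forms homotrimers that join type I fibrils in distensible tissue, had 191, 156, 718, 538 and 148 CPM in KPC ASC KO mice 318, 335, 377, 384 and 388. It ran from 288 through 381 to 647 CPM in KPC mice and from 131 through 172 to 221 CPM in WT mice. All 7 KPC mice lay above all 6 WT mice, and 1 KPC ASC KO mouse, 377, lay above all KPC mice with TMM but not by total counts (703 CPM, against 431 to 844 CPM in KPC mice). Col3a1 rose in KPC against WT by 1.37 on the log2 scale (SE 0.36, edgeR adjusted p = 0.00902).

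The type V genes were measured at lower counts, and their groups overlapped with TMM. Col5a1 had 28.5, 31.3, 90.9, 106 and 8.44 CPM in KPC ASC KO mice 318, 335, 377, 384 and 388. It ran from 29.4 through 55.2 to 78.0 CPM in KPC mice and up to 41.3 CPM, with a median of 11.5 CPM, in WT mice. The WT libraries held 0 to 8 Col5a1 molecules each, and the 0 of mouse 1238 allows up to 15.1 CPM, from the 3 counts that a count of 0 allows. Of the 7 KPC mice, 4 lay above the highest WT mouse. Col5a1 rose in KPC against WT by 1.69 on the log2 scale (SE 0.55, edgeR adjusted p = 0.0272).

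Col5a2 had 14.2, 31.3, 96.5, 63.1 and 21.1 CPM in KPC ASC KO mice 318, 335, 377, 384 and 388, ran from 32.4 through 55.8 to 111 CPM in KPC mice, and from 12.7 through 30.6 to 34.0 CPM in WT mice. Of the 7 KPC mice, 6 lay above the highest WT mouse, and KPC mouse 154 fell among the WT mice. Col5a2 rose in KPC against WT by 1.19 on the log2 scale (SE 0.41, edgeR adjusted p = 0.0302). The call of Col5a1 was lost when WT mouse 69, 1202, 1237 or 1238 was left out (log2 fold changes of 1.45 to 1.61, edgeR adjusted p of 0.0537 to 0.0725), and that of Col5a2 when WT mouse 1197, 1202, 1237 or 1238 or KPC mouse 43 was left out (0.99 to 1.23, adjusted p of 0.0508 to 0.0779).

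**Figure D1:**
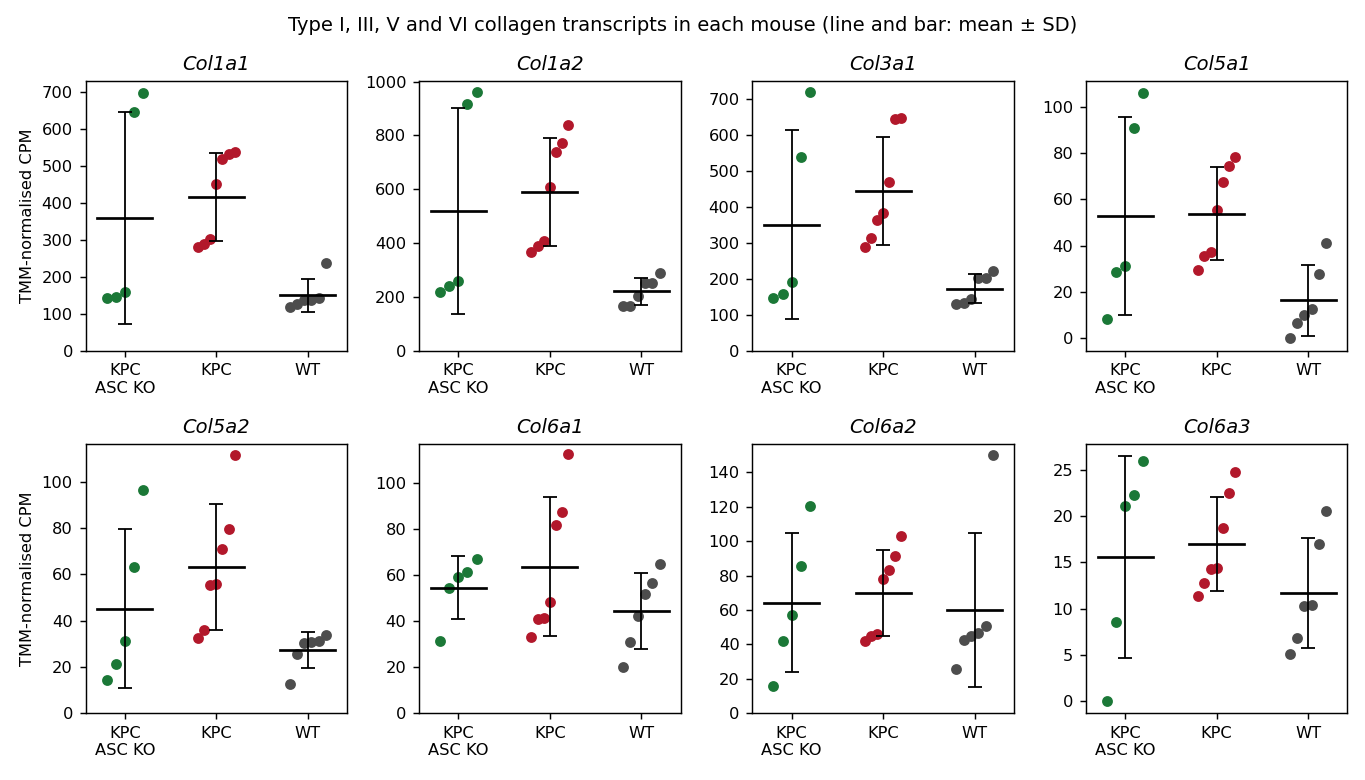
TMM-normalised CPM (vertical axes, each gene on its own scale) of the 8 collagen genes in each mouse of the KPC ASC KO, KPC and WT groups; a point is 1 mouse, the thick line the mean and the bar 1 SD. The KPC mice stand clear of the WT mice for Col1a1, Col1a2 and Col3a1. For the type I, III and V genes the KPC ASC KO mice fall apart into mice 377 and 384, which are high, and the other 3, which are low. Mice 377 and 384 are also the highest KPC ASC KO mice for the type VI genes. For Col6a1 and Col6a3, mouse 388 is close behind them. All groups overlap for Col6a1, Col6a2 and Col6a3.

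The type VI genes did not follow the fibrillar genes past the threshold. Col6a1 had 54.1, 31.3, 61.2, 66.8 and 59.1 CPM in KPC ASC KO mice 318, 335, 377, 384 and 388, ran from 32.9 through 48.3 to 112 CPM in KPC mice, and from 20.2 through 47.0 to 64.7 CPM in WT mice. Of the 7 KPC mice, 3 (43, 48 and 210) lay above every WT mouse, and the KPC ASC KO mice formed no high pair. The log2 fold change of Col6a1 in KPC against WT was 0.50 (SE 0.32, edgeR adjusted p = 0.244), with a 95% interval of -0.12 to 1.12.

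Col6a2, whose chain assembles with those of Col6a1 and Col6a3 into 1 molecule, had 57.0, 15.6, 85.4, 121 and 42.2 CPM in KPC ASC KO mice 318, 335, 377, 384 and 388. It ran from 42.2 through 78.0 to 103 CPM in KPC mice and from 25.6 through 45.6 to 149.7 CPM in WT mice. As for the fibrillar genes, mice 377 and 384 were the highest of the KPC ASC KO mice. By total counts they had 83.5 and 135 CPM of Col6a2, against 9.43 to 30.9 CPM in mice 318, 335 and 388. WT mouse 69 had the highest Col6a2 of all 18 mice with TMM, and by total counts it had 106 CPM, against a highest value of 204 CPM in KPC mice. The log2 fold change in KPC against WT was 0.16 (SE 0.40, edgeR adjusted p = 0.793), and 0.71 without mouse 69, still short of the threshold.

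Col6a3, the gene of the largest type VI chain, gave the fewest molecules. It had 8.55, 0, 22.3, 26.0 and 21.1 CPM in KPC ASC KO mice 318, 335, 377, 384 and 388, ran from 11.4 through 14.4 to 24.7 CPM in KPC mice, and from 5.05 through 10.3 to 20.5 CPM in WT mice. WT libraries held 1 to 4 Col6a3 molecules each, and the 0 of KPC ASC KO mouse 335 allows up to 11.7 CPM, so single libraries measured this gene only roughly. The log2 fold change in KPC against WT was 0.54 (SE 0.45, edgeR adjusted p = 0.387), with a 95% interval of -0.35 to 1.42. That interval overlaps with the 0.71 to 2.25 of Col1a1, and the difference between Col6a3 and Col1a1 was not tested.

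In KPC against WT, then, 5 of the 8 genes were called, all of them fibrillar and all higher, against 29.9% of all genes called in either direction and 14.8% called higher. The median log2 fold change was 1.42 over the 5 fibrillar genes and 0.50 over the 3 type VI genes, against 0.06 over all genes tested. With limma-voom, 3 were called, all higher (Col1a1, Col1a2 and Col3a1). Of all genes, 22.4% were called there in either direction, and 486 of 6920 were called higher. With DESeq2 the same 5 as with edgeR were called, beside 31.1% of all genes in either direction and 1047 of 6920 higher. Without KPC mice 40, 89, 145 and 154, 6 were called, all higher, Col6a1 being the addition (1.11, edgeR adjusted p = 0.0135). Of all genes, 12.9% were called in that fit in either direction, and 406 of 5852 were called higher. Below, a share of all genes called without a direction counts both directions.

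How many collagen genes were called depended on the scale to which libraries were brought. Scaled by total counts, the median gene was itself 1.41 higher on the log2 scale in KPC than in WT mice, 82.1% of all genes were called and so were all 8 collagen genes. Of the 6920 genes, 5508 were called higher. On that scale KPC mice also lay above all WT mice for Col5a1, Col5a2 and Col6a1, which held for 26.1% of the genes tested. Scaled by the total without acinar markers, the median gene was 0.63 higher, 48.8% of genes were called, and 6 collagen genes were, the 5 fibrillar ones and Col6a1 (1.06, adjusted p = 0.0141). Of the 6920 genes, 2946 were called higher on this scale. A change of scale moves all genes nearly alike, so distances from the median gene are close to fixed by construction and are given as a description. In KPC against WT the median fibrillar gene was 1.35 above the median of all genes with TMM, 1.34 without acinar markers and 1.33 by total counts. The median type VI gene was 0.43, 0.43 and 0.41 above the median gene on the same 3 scales. Col6a2 was the closest to the median gene, at 0.10, 0.09 and 0.06 above it.

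**Figure D2:**
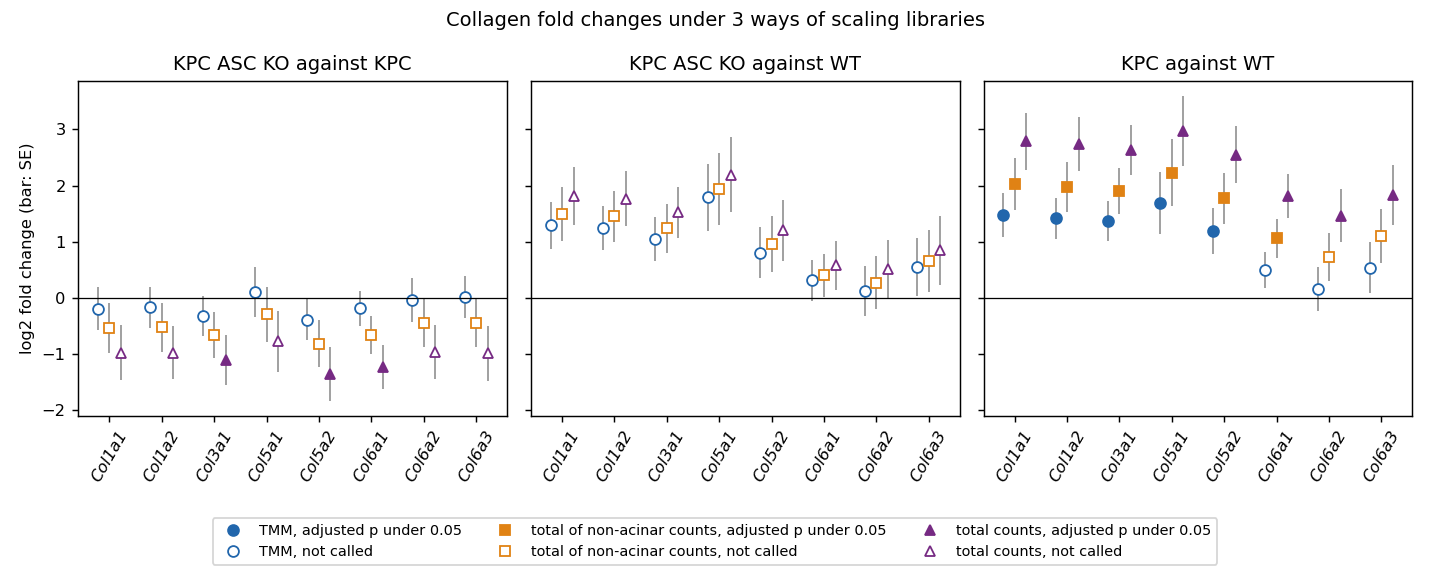
Log2 fold changes (vertical axis; bar, SE) of the 8 collagen genes in KPC ASC KO against KPC, KPC ASC KO against WT and KPC against WT, with libraries scaled by TMM (circles), by the total of non-acinar counts (squares) and by total counts (triangles); filled symbols are called at an adjusted p under 0.05. In KPC against WT every gene shifts upwards from TMM to total counts, by about as much as the median of all genes (0.06, 0.63 and 1.41), and in KPC ASC KO against KPC every gene shifts downwards.

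In KPC ASC KO against KPC, none of the 8 collagen genes was called by edgeR, DESeq2 or limma-voom, against 9.42% of all genes called by edgeR, 11.7% by DESeq2 and 9.51% by limma-voom. None of the 8 had an unadjusted p under 0.05 in any of the 3, while 1829 of the 6920 genes had one by edgeR, 1856 by DESeq2 and 1715 by limma-voom. The log2 fold changes ran from -0.38 for Col5a2 to 0.11 for Col5a1. Their 95% intervals were wide: -0.94 to 0.56 for Col1a1, -0.89 to 0.55 for Col1a2, -1.02 to 0.39 for Col3a1 and -0.79 to 0.42 for Col6a1. Each of these intervals includes 0 and reaches to -0.79 or lower, so the data do not show the groups to be alike. For Col1a1 the SD was 80.1% of the mean in KPC ASC KO, against 28.9% in KPC and 29.5% in WT, while for Col6a1 it was 25.3% in KPC ASC KO, 47.4% in KPC and 37.4% in WT. The KPC ASC KO mice had the largest such share for Col1a1, Col1a2, Col3a1, Col5a2 and Col6a3, the KPC mice for Col6a1 and the WT mice for Col5a1 and Col6a2.

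Scaled by total counts, the median gene was -1.14 in KPC ASC KO against KPC, 75% of all genes were called (73% lower), and 3 collagen genes were called lower: Col3a1 (-1.10, adjusted p = 0.0297), Col5a2 (-1.35, adjusted p = 0.0162) and Col6a1 (-1.23, adjusted p = 0.00928). Set against that median, Col3a1 was 0.04 above it, Col5a2 -0.20 and Col6a1 -0.09. The median fibrillar gene was -0.14 from the median of all genes with TMM, 0.01 with non-acinar counts and 0.17 by total counts, so its side of the median gene changed with the scale. With the total of non-acinar counts, on which the median gene was at -0.55 and 30.8% of all genes were called, no collagen gene was called by edgeR. None of the collagen genes had an unadjusted p under 0.05 on that scale, while 3149 of the 6920 genes had one. The signs of Col5a1 and Col6a3 were positive with TMM (0.11 and 0.01) and negative on both other scales (-0.77 and -0.99 by total counts).

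In KPC ASC KO against WT, none of the 8 genes was called, and neither was any of the 6920 genes (0%), by edgeR. DESeq2 called 8 genes in all and limma-voom 0, none of them collagens, and 691 genes had an unadjusted p under 0.05 by edgeR. Of the collagens, 4 had such a p: Col1a1 (log2 fold change 1.29, SE 0.42, adjusted p = 0.326), Col1a2 (1.25, SE 0.39, adjusted p = 0.322), Col3a1 (1.05, SE 0.38, adjusted p = 0.381) and Col5a1 (1.79, SE 0.60, adjusted p = 0.326). For each of these 4 genes, mice 377 and 384 lay above all WT mice and the other 3 mice overlapped with them. Col5a2 gave 0.81 (SE 0.45, adjusted p = 0.559), Col6a1 0.31, Col6a2 0.13 and Col6a3 0.55. The comparisons with WT share the WT mice, and both comparisons of KPC share the KPC mice, so the 3 sets of values are not independent of each other.

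The make-up of the collagen transcripts, as the share of each type among the counts of the 8 genes, needs no scaling between libraries. Type I chains made up 58.3 ± 4.46% in KPC ASC KO (SD, n = 5), 58.5 ± 2.46% in KPC (SD, n = 7) and 52.6 ± 7.10% in WT (SD, n = 6). Type III made up 23.8 ± 2.67% in KPC ASC KO, 26.1 ± 4.12% in KPC and 24.6 ± 5.75% in WT, and type V made up 6.66 ± 1.95% in KPC ASC KO, 6.72 ± 1.04% in KPC and 6.22 ± 2.34% in WT. Type VI made up 11.2 ± 5.35% in KPC ASC KO, 8.70 ± 1.39% in KPC and 16.6 ± 7.59% in WT.

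By mouse, the type VI share was 16.4%, 7.19%, 6.30%, 8.41% and 17.5% in KPC ASC KO mice 318, 335, 377, 384 and 388, ran from 7.08% to 10.8% in KPC mice and from 10.9% to 31.7% in WT mice. All 7 KPC mice thus lay below all 6 WT mice, at 10.8% in KPC mouse 43 and 10.9% in WT mouse 1238 with almost no gap. The 31.7% of WT mouse 69 rests on 65 of 205 counts (95% Clopper-Pearson interval 25.4% to 38.6%, for counting error only), and the 10.9% of mouse 1238 on 15 of 138 counts (6.21% to 17.3%). In KPC mice the 8 genes gave 761 to 6954 counts, so that their shares are known more closely.

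**Figure D3:**
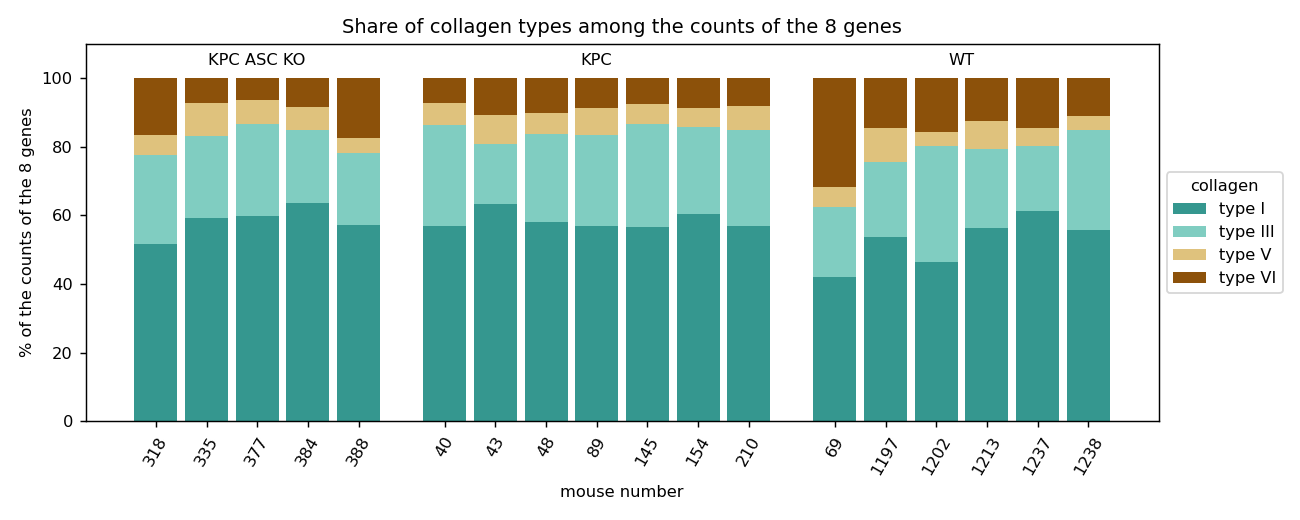
Share of type I, III, V and VI chains among the counts of the 8 collagen genes (vertical axis, percent) in each mouse, in the order KPC ASC KO, KPC and WT. The type VI segment is between 7.08% and 10.8% in KPC mice and between 10.9% and 31.7% in WT mice, with WT mouse 69 standing out.

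The ratio of Col6a1 to Col1a1 put the same contrast to a test. The mean log2 ratio was -2.78 ± 0.39 in KPC (SD, n = 7) and -1.75 ± 0.60 in WT (SD, n = 6), with 4 of 7 KPC mice below every WT mouse. The difference of -1.03 gave p = 0.00466 by an exact two-sided permutation test, and 0.0839 after Benjamini-Hochberg adjustment over the 18 ratios tested, so it did not pass. The ratio in KPC ASC KO was -2.33 ± 1.001 (SD, n = 5). None of the other 17 tests passed either, and the smallest unadjusted p among them, by the same exact permutation test, was 0.149 for Col5a2 over Col5a1 in KPC against WT. The ratios of Col3a1 to Col1a1 differed by -0.05 to -0.17 between groups on the log2 scale, less than the SD of 0.24 to 0.36 within them.

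Within groups, the collagen genes varied together from mouse to mouse. After each group's mean was removed from log2 CPM, the 10 pairs of fibrillar genes had a median Pearson r of 0.74 over 18 mice (0.50 to 0.94), with Col1a1 and Col1a2 at 0.94 the closest pair. The 3 pairs of type VI genes had a median r of 0.52 and the 15 pairs across the classes 0.48. These values rest in part on KPC ASC KO mice 377 and 384: without them the medians were 0.51, 0.49 and 0.28 over 16 mice. The mice share library depth and tissue make-up across all pairs, and low counts of Col6a3 and the type V genes weaken their correlations, so the values are a description.

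Of all other named protein-coding genes tested, the 10 most like the mean of the 8 collagens by this measure were Fn1, Bgn, Ccl9, C4b, Sfrp1, Tmem176b, Efemp2, Ccl6, Serpinh1 and Aebp1, with r of 0.94 for Fn1 down to 0.87 for Aebp1 over 18 mice, and 0.84 and 0.66 for these 2 genes without mice 377 and 384. Fn1 encodes fibronectin, a matrix protein on which collagen fibrils are laid down, Bgn the small proteoglycan biglycan, and Serpinh1 the collagen chaperone Hsp47. Ccl6 and Ccl9 encode chemokines made by myeloid cells, and C4b a complement component. Fn1 averaged 272 CPM in KPC ASC KO, 318 in KPC and 112 in WT mice, and Serpinh1 averaged 134 CPM in KPC ASC KO, 167 in KPC and 62.7 in WT mice.

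The split among KPC ASC KO mice was also seen in other measures. The 8 collagen genes summed to 652 to 2681 CPM in KPC ASC KO mice (median 729), 1125 to 2299 in KPC mice (median 1826) and 597 to 872 in WT mice (median 697). By total counts these genes made up 0.262% and 0.283% of all counts in KPC ASC KO mice 377 and 384, within the 0.168% to 0.427% of KPC mice, so that these 2 mice stood above every KPC mouse only with TMM. The same 2 mice had 36.1% and 30.5% of their counts in the 28 acinar markers, against 49.5% to 52.8% in mice 318, 335 and 388. Their macrophage markers (14 genes) summed to 2976 and 2836 CPM, within the 1995 to 3053 CPM of KPC mice, while mice 318, 335 and 388 had 867 to 1108 CPM, close to the 936 to 1189 CPM of WT mice.

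Among KPC mice, the lowest collagen sums with TMM were those of mice 89, 145 and 154, while as a share of all counts mouse 48 was the lowest (0.168%, against 0.205% to 0.216% in these 3). Mice 89, 145 and 154 had 6.93%, 8.53% and 7.13% acinar counts and the highest B cell sums. KPC mouse 43 had the lowest acinar share, 4.20%, and a high collagen sum, and KPC mouse 48 had the highest acinar share, 37.6%, and a collagen sum of 1826 CPM. Collagen level and acinar share therefore did not follow a single line, and the mice form separate clusters, for which no pooled correlation is given. The part of acinar, macrophage or B cell content in the collagen values was not tested.

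**Figure D4:**
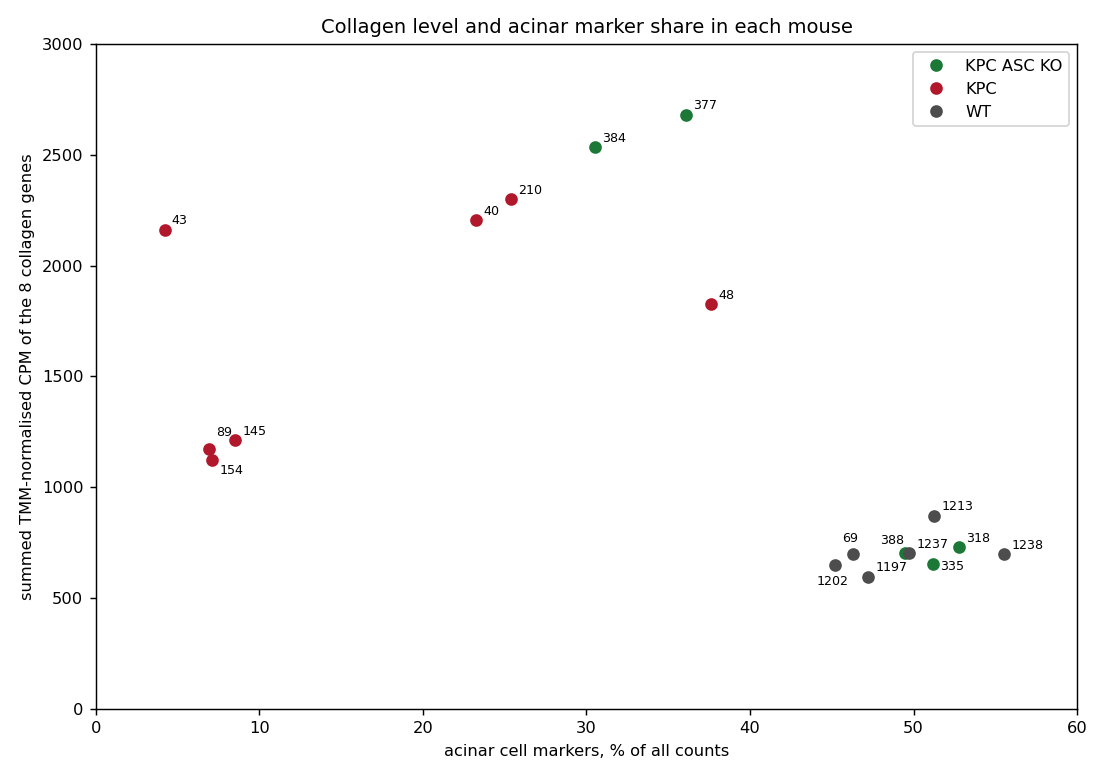
Summed TMM-normalised CPM of the 8 collagen genes (vertical axis) against the share of all counts taken by 28 acinar cell markers (horizontal axis, percent), 1 point per mouse, labelled by mouse number. KPC ASC KO mice 318, 335 and 388 lie among the WT mice, at 45.2% to 55.6% acinar counts and 597 to 872 CPM of collagen, and mice 377 and 384 lie at the top, with the highest collagen sums of all mice on the TMM scale.

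Markers of fibroblasts and stellate cells, the usual makers of these collagens, moved with them in part. The 20 listed markers summed to 541 to 979 CPM in KPC ASC KO mice, 868 to 1886 in KPC mice and 374 to 721 in WT mice. Gfap, a stellate cell marker, was all but absent, with 1 count over all KPC libraries and none in KPC ASC KO or WT mice. Of 15 tested, 6 rose in KPC against WT by edgeR with TMM and none fell, against 14.8% of all genes called higher, with a median log2 fold change of 0.80. The count was 14 by total counts, 9 by non-acinar counts and 3 with limma-voom, beside 82.1%, 48.8% and 22.4% of all genes called in either direction. Of the 6920 genes, 5508, 2946 and 486 were called higher. Among the 6 were Vim, which encodes the filament protein vimentin (1.41, SE 0.22, edgeR adjusted p = 0.000124), Thy1 (1.83, SE 0.29, adjusted p = 0.000159) and Pi16 (1.82, SE 0.48, adjusted p = 0.0086), a marker of adventitial fibroblasts. Of all genes, 12.9% were called in either direction and 406 of 5852 higher in the fit without KPC mice 40, 89, 145 and 154. Without these mice, 6 of 14 markers tested were called higher, with a median of 1.26. T cell markers summed to 521 to 711 CPM in these KPC mice, against 39.8 to 148 CPM in all other mice. The part of T cells in the values of Vim and Thy1 was not tested. Vim was lower in KPC ASC KO than in KPC mice (-0.72, SE 0.22, edgeR adjusted p = 0.0417, and without KPC mice 40, 89, 145 and 154, -0.58, adjusted p = 0.337). The other 14 of the 15 tested markers were not called with TMM. By total counts 14 of the 15 were called lower in that comparison, and by non-acinar counts 7. Of all genes, 73% were called lower there by total counts, and 1876 of 6920 by non-acinar counts (30.8% in either direction). No smooth muscle or pericyte marker (4 tested) was called in any comparison by edgeR with TMM. By total counts 1 was called higher in KPC against WT and 1 lower in KPC ASC KO against KPC, and with limma-voom 1 was called lower in KPC against WT. The part of fibroblast content in the collagen values was not tested.

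Genes of collagen synthesis and folding in the endoplasmic reticulum did not move as one with the collagen genes. In KPC against WT, 3 of 13 tested rose and 3 fell with TMM, against 14.8% of all genes called higher and 15.1% called lower, and the median log2 fold change was -0.02. By total counts, with which 82.1% of all genes were called, 7 were called higher and none lower, with a median of 1.35. In KPC ASC KO against KPC 7 were called lower by total counts, beside 73% of all genes. Those that rose were Serpinh1 (1.41, edgeR adjusted p = 0.00418), Colgalt1, which adds galactose to collagen (1.07, adjusted p = 0.00404), and Sparc, which encodes a secreted collagen-binding protein (1.07, adjusted p = 0.00507). Ppib, a prolyl isomerase of general use in secretion, averaged 469.7 ± 146 CPM in KPC mice and 1113 ± 142 in WT mice (SD, n = 7 and 6), a log2 fold change of -1.25 that became 0.003, not called, with total counts. P4hb, the protein disulfide isomerase that is also a subunit of prolyl 4-hydroxylase, was at -1.37 with TMM and -0.21, not called, with total counts. Mia3, which helps load procollagen into transport vesicles, was at -1.002 with TMM and turned to 0.29, not called, with total counts.

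The same 3 genes were higher in KPC ASC KO than in KPC mice with TMM: P4hb by 1.24 (edgeR adjusted p = 0.0141), Ppib by 0.88 (adjusted p = 0.00872) and Mia3 by 0.63 (adjusted p = 0.0459), and with total counts none was called and Ppib and Mia3 turned negative (-0.19 and -0.48). These genes are also used at large scale by acinar cells, whose markers were lower in KPC than in WT mice (26 of 28 called, against 15.1% of all genes called lower) and higher in KPC ASC KO than in KPC mice (25 of 28 called, against 9.42% of all genes called). Without KPC mice 40, 89, 145 and 154, 3 of the 28 acinar markers were called in KPC against WT and none in KPC ASC KO against KPC. Of all genes, 12.9% were called in KPC against WT (346 of 5852 lower) and 1 in KPC ASC KO against KPC in that smaller fit. The median log2 fold changes of the acinar markers stayed large in it, at -1.86 in KPC against WT and 1.69 in KPC ASC KO against KPC. With all mice these medians were -2.57 and 2.39. P4hb was 0.78, Ppib 0.72 and Mia3 0.50 higher in KPC ASC KO than in KPC without the mice named, none of them called. The part of acinar content in their values was not tested.

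Of the genes that trim procollagen and crosslink fibrils, 4 of 8 tested rose in KPC against WT and 1 fell with TMM, with a median of 1.01. Of all genes, 14.8% were called higher and 15.1% lower. By total counts and by non-acinar counts 7 were called higher and none lower. Of the 6920 genes, 5508 and 2946 were called higher, and 82.1% and 48.8% in either direction. With limma-voom 1 was called higher and 1 lower, beside 22.4% of all genes called. In KPC ASC KO against KPC, 1 was called lower with TMM and 6 by total counts. Of all genes, 9.42% were called there with TMM and 73% were called lower by total counts. Tgm2, the tissue transglutaminase, averaged 60.8 ± 18.0 CPM in KPC ASC KO (SD, n = 5), 132 ± 36.2 CPM in KPC (SD, n = 7) and 65.6 ± 15.0 CPM in WT mice (SD, n = 6). It rose in KPC against WT (1.03, SE 0.22, edgeR adjusted p = 0.00176) and was lower in KPC ASC KO than in KPC (-1.11, SE 0.23, adjusted p = 0.00632). Without KPC mice 40, 89, 145 and 154 that second difference was -1.22 with an edgeR adjusted p of 0.0891. In KPC against WT 6 of the 8 genes then rose and none fell, beside 12.9% of all genes called in either direction (406 of 5852 higher). Pcolce, which speeds removal of the C-terminal propeptide, rose by 0.97 (adjusted p = 0.0296), as did Loxl1 and Lox, which oxidise lysines for crosslinks, by 1.17 and 2.44 (adjusted p = 0.0383 and 0.0399). Furin, a general proprotein protease, was at -0.83 with TMM and 0.45, not called, with total counts.

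Of the genes of partners in the fibril, 9 of 12 tested rose in KPC against WT by edgeR with TMM and none fell, against 14.8% of all genes called higher, with a median log2 fold change of 1.32. With limma-voom 4 of the 12 were called higher, beside 486 of 6920 genes called higher and 22.4% called in either direction. By total counts and by non-acinar counts 11 were called higher. Of the 6920 genes, 5508 and 2946 were called higher, and 82.1% and 48.8% in either direction. In KPC ASC KO against KPC none was called by edgeR with TMM, while 9 were called lower by total counts and 4 by non-acinar counts, scales on which the median of all genes was itself lower. Of all genes, 73% were called lower by total counts, and 1876 of 6920 by non-acinar counts (30.8% in either direction). Decorin (Dcn) averaged 366 ± 102 CPM in KPC ASC KO (SD, n = 5), 539 ± 137 CPM in KPC (SD, n = 7) and 293 ± 42.6 CPM in WT mice (SD, n = 6), a rise of 0.88 in KPC against WT (SE 0.18, edgeR adjusted p = 0.00138). Bgn rose by 1.60 (SE 0.32, adjusted p = 0.00156), Postn, which encodes the matricellular protein periostin, by 1.80 (SE 0.39, adjusted p = 0.00196) and Emilin1, an elastic fibre glycoprotein, by 1.48 (SE 0.35, adjusted p = 0.00307).

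Among other collagens outside basement membranes, 3 of 5 tested rose in KPC against WT with TMM and 1 fell, against 14.8% of all genes called higher and 15.1% lower. With limma-voom 1 was called higher and 1 lower, beside 22.4% of all genes called. Those that rose with TMM were Col12a1 by 2.60 (edgeR adjusted p = 0.0065) and Col14a1 by 1.37 (adjusted p = 0.0087), which encode collagens that coat fibrils, and Col8a1 by 2.13 (adjusted p = 0.00341), which encodes a short-chain collagen. Col27a1, the single other fibrillar chain with enough counts to test, rose by 1.71 (adjusted p = 0.0106). The other 8 listed fibrillar and type VI chains were too low to test, Col2a1 with 1 count in KPC ASC KO, 0 in KPC and 0 in WT mice. Col7a1, whose collagen forms anchoring fibrils under epithelia, went the other way. It averaged 68.3 ± 37.9 CPM in KPC ASC KO (SD, n = 5), 13.8 ± 9.49 CPM in KPC (SD, n = 7) and 79.7 ± 43.8 CPM in WT mice (SD, n = 6), a fall of -2.68 in KPC against WT (SE 0.48, adjusted p = 0.000577) and a rise of 2.43 in KPC ASC KO against KPC (SE 0.48, adjusted p = 0.00662), with the same sign and call by total counts (-1.33 and 1.27). Without KPC mice 40, 89, 145 and 154 its value in KPC ASC KO against KPC was 1.67 and missed the threshold (adjusted p = 0.17).

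Both tested proteases that cut collagen rose in KPC against WT by edgeR with TMM, and 1 of them with limma-voom: Mmp14, a membrane-bound collagenase, by 1.45 (SE 0.35, edgeR adjusted p = 0.00416) and Mmp2, a gelatinase that Mmp14 activates, by 1.35 (SE 0.38, adjusted p = 0.0112). Of all genes, 14.8% were called higher with TMM, and 486 of 6920 were called higher with limma-voom (22.4% in either direction). Neither protease was called in KPC ASC KO against KPC (-0.57 and -0.68, edgeR adjusted p = 0.258 and 0.234) with TMM, and both were called lower by total counts (-1.59 and -1.66) and by non-acinar counts. Of all genes, 73% were called lower there by total counts, and 1876 of 6920 by non-acinar counts (30.8% in either direction). Of 6 receptors and uptake genes tested, 1 rose in KPC against WT with TMM, a share close to the 14.8% of all genes. By total counts 6 were called higher and by non-acinar counts 3. Of the 6920 genes, 5508 and 2946 were called higher, and 82.1% and 48.8% in either direction. In KPC ASC KO against KPC 4 were called lower by total counts, beside 73% of all genes. The 1 called with TMM was Lair1, which encodes an inhibitory collagen receptor of leukocytes (2.89, SE 0.67, adjusted p = 0.00299). Mrc2, which encodes a receptor that takes up collagen fragments, was at 1.55 (SE 0.65, adjusted p = 0.0725). No gene of the lists on collagen assembly was called in KPC ASC KO against WT by edgeR with TMM.

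**Figure D5:**
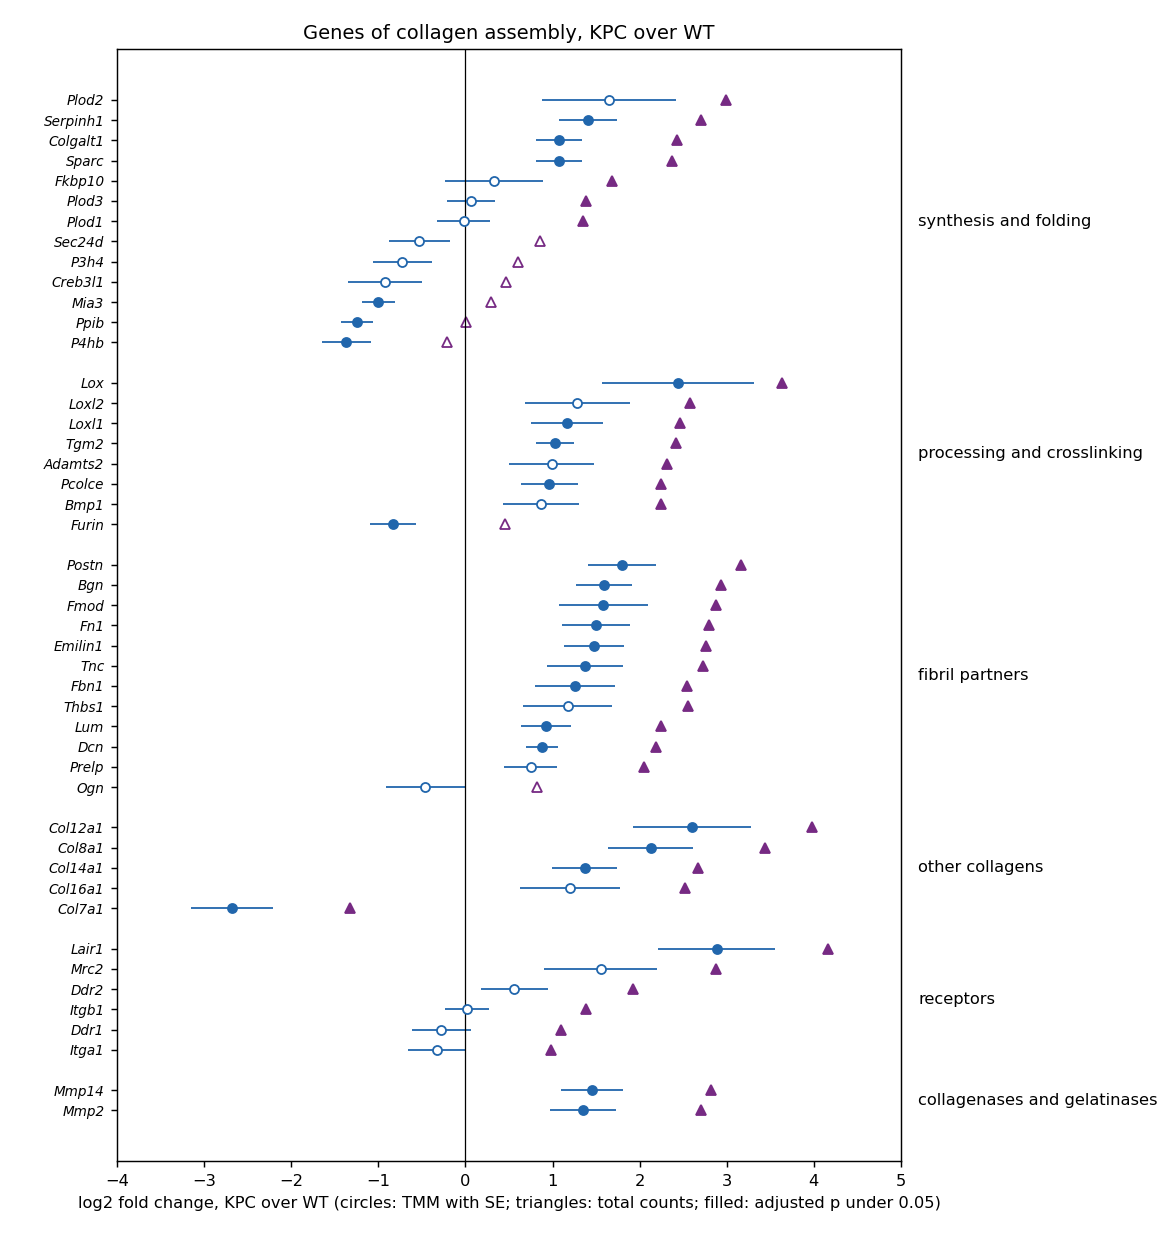
Log2 fold change in KPC against WT (horizontal axis) of tested genes of collagen synthesis, processing, fibril partners, other collagens, receptors and proteases; circles, TMM with SE; triangles, total counts; filled symbols are called at an adjusted p under 0.05. Fibril partners other than Ogn lie to the right of 0 with TMM, and genes of synthesis and folding lie on both sides of 0, of which Ppib and Mia3 move to 0.003 and 0.29 with total counts.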

How the data were processed

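Per the labels' protocols, total RNA from snap-frozen pancreas was converted from the poly(A) end with primers that carried an 8 bp index and a 10 bp UMI, amplified in pools and read in the sense direction, so that 1 molecule gives 1 count whatever the length of its transcript. The table the authors deposited holds raw UMI counts per gene, whole numbers that were not normalised. Per the submitters' processing notes, limma 3.50.0 and edgeR 3.36.0 were run in R 4.1.2, and the builds named are mm10 and GRCm38. The aligner is not given in the sources used here, nor is the way UMIs were collapsed.

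Counts were analysed with edgeR 4.0.16 in R 4.3.3: filterByExpr with a minimum count of 10, TMM scaling, and a robust quasi-likelihood fit to all 18 mice in 3 groups without covariates, with Benjamini-Hochberg adjustment and a threshold of 0.05. CPM are TMM-normalised, and intervals and limits on counts cover counting error only. The SE of an edgeR fold change was derived as the size of the log2 fold change over the square root of the quasi-likelihood F. Intervals of fold changes are 1.96 SE either side. They leave out the degrees of freedom of the test and so are somewhat narrow. Ratios per mouse used a pseudocount of 0.5 counts and exact permutation tests over all splits of the mice, in Python 3.11.15 with numpy 2.4.6. Their Benjamini-Hochberg adjustment used scipy 1.17.1. Log2 CPM for correlations used a prior count of 2. Alternatives were other scalings, no filter, DESeq2 1.42.0, limma-voom 3.58.1, fits of only the groups compared, thinned counts and leaving out mice. The fit and the permutation test were first tested on simulated data. Labels give each library as a separate mouse, and counts of every pair within a group differed beyond sampling noise, at a chi-square of 2.35 or more per degree of freedom. A library of 294077 counts measures a gene at 10 counts only roughly.

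The collagen genes, the other gene lists and the tests were chosen with earlier results of these data known, and the comparison without KPC mice 40, 89, 145 and 154 was added after the data were seen, as was leaving KPC ASC KO mice 377 and 384 out of the correlations. From each other list on collagen, the called genes with the smallest p were named, up to 4 (6 in the list of synthesis and folding). Otherwise up to 2 with the smallest p were named, and the 10 genes most like the collagens were named too. Vim, Thy1 and Pi16 were named from the 6 fibroblast and stellate cell markers called. Genes of the other cell type lists were not named. Gfap and Lox were named outside these rules. Promoters came from RefSeq (GRCm38.p6), and strands and overlapping genes from GENCODE M21. Protein sequences were not analysed here.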

Additional observations from a re-analysis of the deposited data

Results flagged for a closer look

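In 2 of the 42 sets of 1 gene or ratio in 1 group that were examined, a single mouse stood apart from its group, by a gap to its nearest neighbour that was large against the range of the whole group. Chance marks about 1 in 20 such sets. WT mouse 1213 had 237 CPM of Col1a1, while the other 5 WT mice had 117 to 144 CPM. The gap was 0.781 of the range, and mouse 1213 still lay below every KPC mouse. By total counts it had 144 CPM, against 69.4 to 105 CPM in the other 5. WT mouse 69 had 149.7 CPM of Col6a2, while the other 5 WT mice had 25.6 to 50.5 CPM, a gap of 0.8 of the range. The same mouse had 64.7 CPM of Col6a1, the highest of the WT mice, and 6.81 CPM of Col6a3, and its type VI share of 31.7% was the highest of all 18 mice.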

How the results depend on the processing

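No paired analysis was possible because the groups share no mouse numbers. In KPC against WT, the 8 fold changes kept their sign under every alternative. Called were 8 by total counts, 3 with limma-voom and 3 to 5 with a mouse left out (3 without WT 1202, 1237 or 1238), of all genes 5684 by total counts, 3378 by non-acinar counts, 752 without 4 KPC mice and 1706 to 2325 with a mouse left out. Of the calls, 1023 were higher and 1047 lower with TMM, 5508 and 176 by total counts. Without the filter Col5a1 missed the threshold (1.83, edgeR adjusted p = 0.0667).

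In KPC ASC KO against KPC, 3 collagens were called by total counts and 0 otherwise, of all genes 5193 by total counts, 2129 by non-acinar counts, 192 with 2 groups only, 1 without 4 KPC mice and 157 to 1068 with a mouse left out. Col5a1 turned to -0.77 by total counts, -0.29 by non-acinar counts and -0.22 without 4 KPC mice, and Col6a3 to -0.99, -0.44 and -0.17 in these, -0.0953 without filter and -0.0902 with limma-voom. With a mouse left out, Col1a1 ran from -0.57 to 0.0205, Col1a2 -0.50 to 0.0399, Col5a1 -0.28 to 0.35, Col6a1 -0.33 to 0.0307, Col6a2 -0.39 to 0.20 and Col6a3 -0.27 to 0.27.

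In KPC ASC KO against WT, genes called were 1 by total counts, 2 by non-acinar counts, 12 without filter, 8 with DESeq2, 8 with 2 groups only and 0 to 1 with a mouse left out, which moved Col6a2 from -0.24 to 0.67. The cause of these shifts was not tested.

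With a pseudocount of 2, the Col6a1/Col1a1 difference in KPC against WT passed (-1.15, adjusted p = 0.021, exact permutation test), as it did without WT mouse 1238 (-1.20 to -0.87 over mice left out), and Col6a3/Col6a1 in KPC ASC KO against KPC turned to 0.075. With a mouse left out, differences of these ratios crossed 0: Col1a1/Col1a2 in KPC ASC KO against WT (-0.11 to 0.071), Col3a1/Col1a1 in KPC ASC KO against KPC (-0.14 to 0.0573), Col6a1/Col6a2 in KPC against WT (-0.0896 to 0.37) and in KPC ASC KO against KPC (-0.0435 to 0.40), and Col6a3/Col6a1 in KPC against WT (-0.26 to 0.11), KPC ASC KO against KPC (-0.56 to 0.13) and KPC ASC KO against WT (-0.61 to 0.11).

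Thinned to the smallest library, 7 collagens were tested and 5 called in KPC against WT. Depth limits Col6a3 and Col5a1 most, with 1 to 4 and 0 to 8 counts in WT libraries.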
